A study of Mus musculus with 2 samples.

Results

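Calcium crosses an epithelium in 3 steps, and the genes described here serve each of them. They are Calb1, Calb2 and S100g for calcium-binding proteins, Trpv6 for entry, Atp2b1, Atp2b4 and Slc8a1 for exit, and Calm2 for the calcium sensor calmodulin. The genes were taken by their symbols, and 7 of these 8 symbols had a row among the 14678 genes of the table. S100g had no row under its symbol or its gene identifier and was not analysed here.

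Uteri were profiled on gestation day 2.5 (G2.5) to ask which genes depend on VEGF, the vascular endothelial growth factor. All mice were double transgenic females, given in the labels as VEGFtetO/tetO/beta-AKtg/wt, so that the control group carried the same alleles as the repressed group. The tetR-Krab repressor was driven by a β-actin promoter throughout the body, so the repressor was not limited to the uterus. Dox+ mice ate chow with doxycycline, which holds the repressor off the VEGF promoter and leaves VEGF normal. Dox− mice were littermates taken off doxycycline while young, some weeks before they were used as adults, and VEGF was repressed in them. Their time without the drug thus covered growth to adulthood and not the pregnancy alone. Females were set for timed mating with VEGFtetO/tetO males. Absence of the drug and repression of VEGF cannot be told apart in this design. RNA of 3 uteri was pooled for each condition, and 1 library was sequenced from each pool. No replicate error exists for any value here, and the intervals below cover counting error alone.

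The Dox+ library held 5985925 clean tags and the Dox− library 5844314. A copy is a sequence tag assigned to a gene, and TPM is the number of copies per 1000000 clean tags. Vegfa, the repressed gene, had 247 copies in Dox+ and 125 in Dox−, which is 1.93-fold lower in Dox− (95% interval 1.55 to 2.41). Genes with at least 200 copies summed over the libraries (combined copies) were compared. A gene was called when it differed at least 1.5-fold with a false discovery rate (FDR) below 0.05 in a test on the tags. That test compares these libraries and not the conditions. Of 6547 genes compared, 15.2% were called higher and 14.7% lower in Dox−, and their median log2 ratio was 0.03.

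In absorbing and secreting epithelia, Trpv6 is the channel that lets calcium into the cell. Calbindins bind it in the cytosol and carry it across, and the Atp2b pumps and the Slc8a1 exchanger move it out at the other side. In the uterus calbindins are known as epithelial genes under the control of steroid hormones. Calb1 encodes the larger calbindin, S100g the smaller one, and Calb2 encodes calretinin, a relative of Calb1 best known from neurons and mesothelium.

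Calb1 fell the most among these genes. It had 1753 copies in Dox+ and 184 in Dox−, or 293 and 31.5 TPM. Most copies thus came from the Dox+ library. The level fell 9.30-fold (95% interval 7.99 to 10.9), a log2 ratio of -3.22. Only 20 of the 6547 compared genes, Calb1 included, had a log2 ratio as low or lower. Among the 1598 genes with at least 1000 combined copies there were 10. In Dox+ 97.6% of the genes in the table had fewer copies than Calb1, and in Dox− 71.0% did. In bulk tissue, fewer cells of a type and less RNA per cell cannot be told apart. Calb1 lies on chromosome 4, 15808411 to 15835211, plus strand, of NCBIM37, the mm9 assembly. The call was lost in the edgeR exact test when pools were taken to vary with a coefficient of 0.4.

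Calb2 (chromosome 8, 112661402 to 112692110, minus strand) was at the limit of detection. It had 2 copies in Dox+ and 0 in Dox−. A count of 0 allows up to 3 copies, or 0.513 TPM in Dox−, and no fold change was taken. A decrease in Calb2 was therefore not detectable at this depth, and no rise above the limit was seen.

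**Figure D1:**
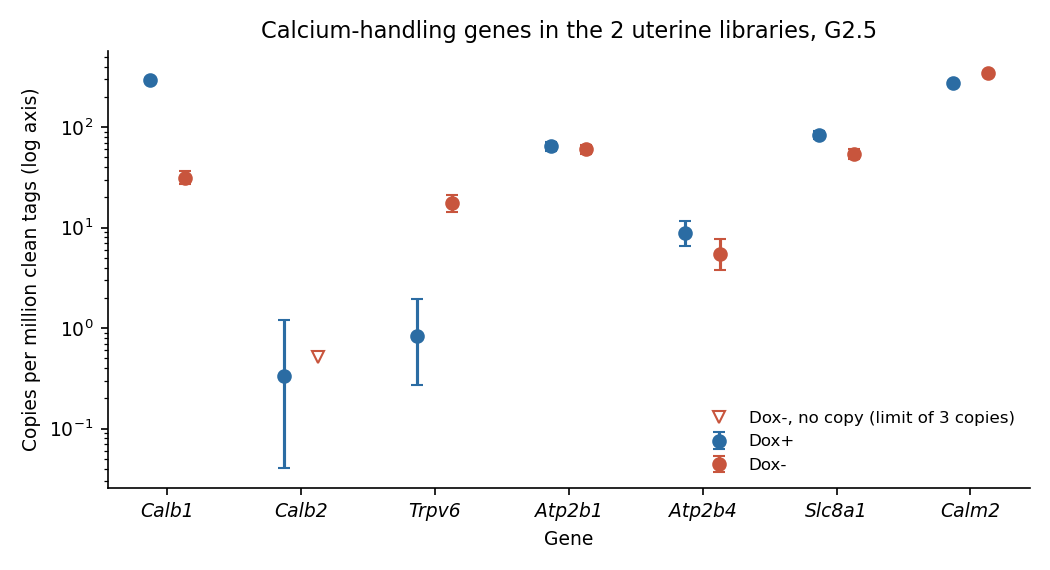
Levels in TPM (log axis) of the 7 genes with a row in the table, in the Dox+ library (blue) and the Dox− library (red), with exact 95% Poisson intervals for counting error. The triangle marks the set limit of 3 copies, or 0.513 TPM, for Calb2, which had no copy in Dox−. It is not the end of an exact interval. Calb1 went from 293 to 31.5 and Trpv6 from 0.835 to 17.5, while the points of Atp2b1 lie close together.

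Trpv6 had most of its copies in the Dox− library, the opposite of Calb1. It had 5 copies in Dox+ and 102 in Dox−, or 0.835 and 17.5 TPM. Its level was thus near the limit of detection in Dox+. The ratio was 20.9-fold in favour of Dox− (95% interval 8.67 to 65.7), and the interval is wide because of the 5 copies. With 107 combined copies Trpv6 was below the minimum of 200 and was not called. It was called higher when the minimum was set to 100. Of 4037 genes with at least 50 but fewer than 200 combined copies, 5 including Trpv6 had a log2 ratio as high or higher. Trpv6 lies on chromosome 6, 41570620 to 41586404, minus strand.

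Other channels of the Trpv family had ratios in both directions. Of the 6 genes Trpv1 to Trpv6, 3 had a row. Trpv2 had 107 and 66 copies, 1.58-fold lower in Dox− (1.15 to 2.19), and Trpv4 had 16 and 38 copies, 2.43-fold higher (1.32 to 4.67). Neither reached 200 combined copies. Trpv6 made up 3.91% of the copies of these 3 genes in Dox+ and 49.5% in Dox−. These family members, like Calm3 and those of the pumps and exchangers below, were singled out with their values known.

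No pump gene of the plasma membrane was called. Atp2b1 encodes the pump found in most cells and had 385 copies in Dox+ and 352 in Dox−. The ratio of Dox− to Dox+ was 0.936 (95% interval 0.808 to 1.08), an interval that includes no difference. Atp2b4, a pump also known from smooth muscle, had 53 and 32 copies. That is 1.62-fold lower in Dox− (1.02 to 2.59) on few copies, and with 85 combined copies it was not compared. Among those 4037 genes of low copy number, 16.7% had a log2 ratio as low as that of Atp2b4 or lower. Atp2b2 had 110 and 68 copies, 1.58-fold lower in Dox− (1.16 to 2.17), and was not compared either. Atp2b3 had no row. The 3 pump genes summed to 548 copies in Dox+ and 452 in Dox−, a ratio of 0.845 (0.744 to 0.959). Atp2b1 held 70.3% of the pump copies in Dox+ and 77.9% in Dox−. The pump genes lie on chromosome 10, 98377786 to 98488777, plus strand (Atp2b1) and on chromosome 1, 135599255 to 135697618, minus strand (Atp2b4).

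Slc8a1, the sodium-calcium exchanger best known from heart and other muscle, fell moderately. It had 503 copies in Dox+ and 314 in Dox−, or 84.0 and 53.7 TPM. The level was 1.56-fold lower in Dox− (95% interval 1.36 to 1.81), a log2 ratio of -0.65, just past the threshold of 1.5. Its interval does not overlap that of Atp2b1. The log2 ratio ranked Slc8a1 852nd from the lowest of the 6547 genes. The call was lost at a threshold of 2-fold and when pools were taken to vary with a coefficient of 0.2 or 0.4. Slc8a1 held 97.5% of the copies of the Slc8a genes in Dox+ and 95.2% in Dox−, since Slc8a2 had 11 and 14 copies and Slc8a3 had 2 in each library. It lies on chromosome 17, 81785359 to 82048947, minus strand.

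Calm2 encodes calmodulin, the calcium sensor of most cells, and Calm3 encodes the same protein. Calm2 had 1640 copies in Dox+ and 2048 in Dox−, a 1.28-fold higher level in Dox− (95% interval 1.20 to 1.37). This is past counting error but under the threshold of 1.5, and Calm2 was not called. Calm3 had 936 and 979, a ratio of 1.07 (0.978 to 1.17). The intervals of Calm2 and Calm3 do not overlap. Tags that matched more than 1 gene were not counted, which may touch genes with near-identical copies elsewhere. Calm2 lies on chromosome 17, 87832752 to 87846275, minus strand.

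**Figure D2:**
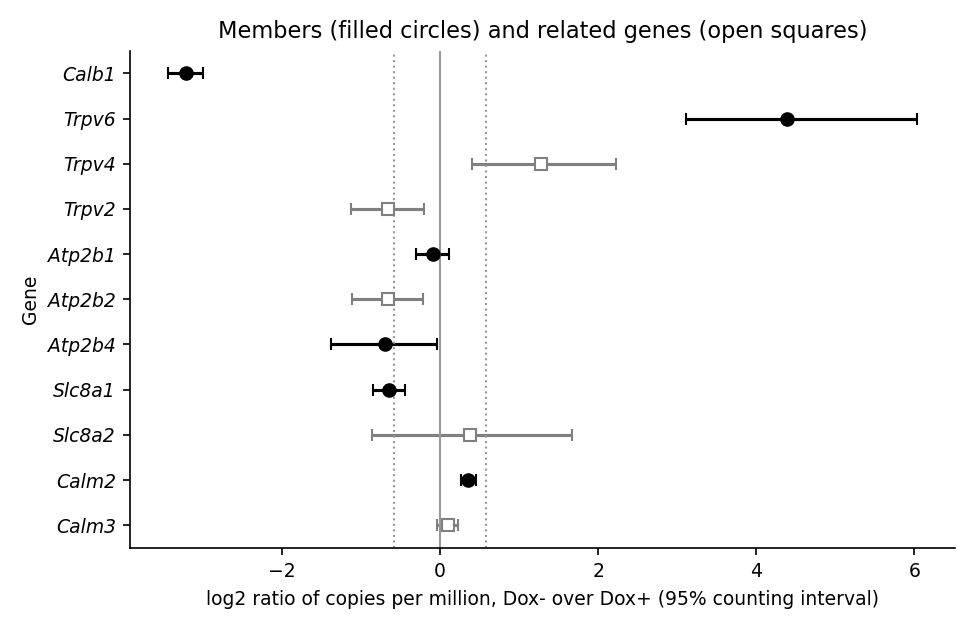
Log2 ratio of TPM, Dox− over Dox+, with 95% counting intervals, for the members with a ratio (filled circles) and related genes (open squares). Dotted lines mark 1.5-fold in either direction. Calb1 lies at -3.22 and Trpv6 at 4.39, while Atp2b1, Slc8a2 and Calm3 have intervals that include 0.

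Of the 8 genes, 4 reached 200 combined copies, and 2 of these, Calb1 and Slc8a1, were called lower and 0 higher, beside 14.7% and 15.2% of all compared genes. In the annotation columns of the table, Atp2b1, Atp2b4, Slc8a1 and Trpv6 carried the term calcium ion transport, and Calb1, Calb2 and Calm2 the term metal ion binding. The choice of genes was made with earlier results of these data known, so that the number called is a description. Of the 6 genes with a ratio, Trpv6 and Calm2 had a log2 ratio above 0 and the other 4 had one below 0.

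Levels of different genes were compared as TPM per kilobase (kb) of the longest annotated protein-coding transcript. In Dox+ Calm2 was highest with 227 TPM per kb, followed by Calb1 with 69.4, Slc8a1 with 28.8, Atp2b1 with 9.02 and Atp2b4 with 1.04. In Dox− the order below Calm2, with 291 TPM per kb, was Slc8a1 with 18.4, Atp2b1 with 8.45, Calb1 with 7.46, Trpv6 with 5.96 and Atp2b4 with 0.644. The intervals of Atp2b1 (7.59 to 9.38) and Calb1 (6.42 to 8.62) in Dox− overlap, as do those of Calb1 and Trpv6 (4.86 to 7.24), so that counting error does not settle their order on this scale. Trpv6, with 0.285 (0.0927 to 0.666), and Calb2, with 0.234 (0.0283 to 0.844), could not be ordered in Dox+. If each transcript gave 1 tag, TPM without division by length would be the measure, and parts of this order would differ. In Dox+ the intervals of Calb1, with 293 TPM (279 to 307), and Calm2, with 274 (261 to 288), overlap on that scale. In Dox− Slc8a1, with 53.7 TPM (47.9 to 60.0), is then not above Atp2b1, with 60.2 (54.1 to 66.9), and their intervals overlap. The place of Slc8a1 above Atp2b1 per kb in Dox− rests on annotated lengths of 2913 and 7130 bases. The intervals of Atp2b1, Calb1, with 31.5 TPM (27.1 to 36.4), and Trpv6, with 17.5 (14.2 to 21.2), are then apart, in that order. The paper describes tag profiling with TPM not divided by length, while the labels mention fragmented mRNA. The clean tag totals in the paper equal the library sizes recovered here, so the counts are those tags. TPM without division is thus the study's own measure, and the order per kb is given beside it. Where these scales differ, the order of these genes depends on the measure.

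Upstream sequences of Trpv6 and Slc8a1 are shown. These were the transport genes with the largest difference in each direction among those with a sequence and more than 100 combined copies. This choice was made with the values known. The minimum leaves out Atp2b4, whose 85 combined copies gave a log2 ratio of -0.69, below the -0.65 of Slc8a1. Sequences were from RefSeq on GRCm38.p6, where 5 of the 8 genes had an entry. Calb1, Calb2 and Calm2 had none. Each is the 250 bases before the start site, 5′ to 3′, with any match to AGGTCA, a binding half-site of nuclear receptors, in capitals on either strand.
Trpv6, chr6:41636406-41636655, minus strand: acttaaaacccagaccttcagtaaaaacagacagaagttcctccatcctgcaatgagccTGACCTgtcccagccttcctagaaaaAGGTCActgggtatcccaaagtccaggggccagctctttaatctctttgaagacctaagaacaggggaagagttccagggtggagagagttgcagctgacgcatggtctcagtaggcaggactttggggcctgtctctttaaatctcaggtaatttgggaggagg
Slc8a1, chr17:81738388-81738637, minus strand: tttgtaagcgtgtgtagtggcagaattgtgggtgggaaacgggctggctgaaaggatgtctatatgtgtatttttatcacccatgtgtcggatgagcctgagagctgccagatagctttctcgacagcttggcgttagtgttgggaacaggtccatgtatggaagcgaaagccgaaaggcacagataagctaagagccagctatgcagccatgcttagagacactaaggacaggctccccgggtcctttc
Trpv6 had 2 matches, starting 191 and 165 bases before the start site, the first of them on the opposite strand. At least 2 matches were found in 1.36% of all 32851 promoters, and at least 1 in 14.0%. Slc8a1 had no match in its window. The S100g window also had 2 matches, 220 and 107 bases before its start site. Atp2b1 and Atp2b4, the remaining genes with an entry, had no match. TATAAA, found on either strand in 12.4% of promoters, and CCAAT, found in 33.8%, were in neither printed window, and neither was GGGCGG, found in 32.7%. These matches describe letters in a window, not sites of binding.

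Genes with a pattern like that of Calb1 were sought by the distance over the log2 TPM of the 2 libraries. The 3 nearest were Hoxa11as, Pkdcc and Hdc, at distances of 0.21, 0.40 and 0.45. Hoxa11as, an antisense RNA of the HOXA cluster, had 1869 copies in Dox+ and 161 in Dox−. How tags of the opposite strand were kept apart in this count is not given in the sources used here. Pkdcc, a protein kinase gene, had 2259 and 207 copies. Hdc, the enzyme that makes histamine, had 1928 and 137 copies. With 2 libraries, such likeness means a like level in each of them and no more.

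**Figure D3:**
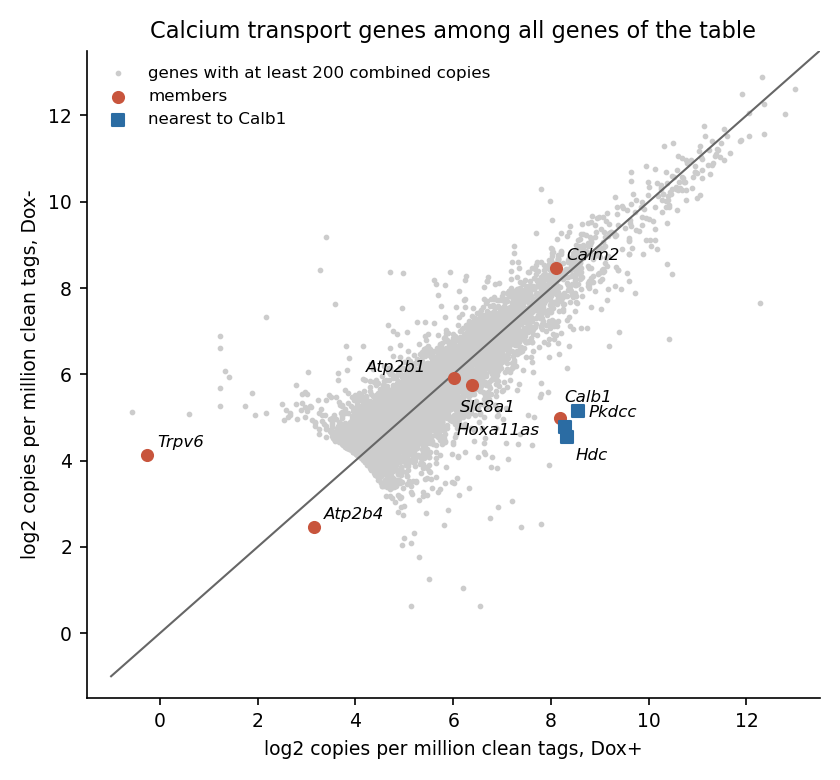
Log2 TPM in Dox+ (x axis) and Dox− (y axis) for the 6547 compared genes (grey), the members with a ratio (red circles, Calb2 left out) and the 3 genes nearest to Calb1 (blue squares). The line marks equal levels. Calb1 lies below the cloud together with Hoxa11as, Pkdcc and Hdc, and Trpv6 lies above the line at the left edge.

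Other genes of the pathway were followed with lists of symbols, older synonyms included, from which the members were left out. For comparison with the counts below, 15.2% of all compared genes were called higher and 14.7% lower. Of 29 genes for calcium entry channels in the table, 8 were compared, 1 was called lower and 0 higher, and the median log2 ratio was 0.02. The called gene was Fam38a, a mechanosensitive channel now named Piezo1, which fell from 149 to 70 copies, 2.08-fold (1.55 to 2.80). Of 18 calcium buffers and EF-hand sensors, 8 were compared with 1 called in each direction, and the median was -0.01. Pdcd6 rose from 394 to 578 copies and Calml4 fell from 151 to 80. Of the 8 other extrusion genes in the table, 3 were compared and 1 was called lower. This was Slc24a3, an exchanger that also moves potassium, which fell from 655 to 273 copies, 2.34-fold (2.03 to 2.71). Its decrease was larger than that of Slc8a1, and the intervals do not overlap.

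The medians of calcium stores and calmodulin targets lay on opposite sides of the 0.03 of all compared genes. Their counts of calls stand beside 15.2% of all compared genes called higher and 14.7% lower. Of 23 compared genes of the endoplasmic reticulum, Golgi and mitochondria, 5 were called higher and 2 lower, with a median log2 ratio of 0.28. Hspa5, a chaperone that also binds calcium, rose from 3790 to 6472 copies, 1.75-fold (1.68 to 1.82), and the Golgi pump Atp2c1 from 177 to 290. Atp2a3, a pump of the endoplasmic reticulum, fell from 269 to 147 copies, 1.79-fold (1.46 to 2.20), and Nucb1 from 2967 to 1881. Among 21 compared calmodulin-dependent enzymes and calmodulin-binding proteins, 5 were called lower and 1 higher, the median was -0.19, and 19 had a log2 ratio below 0. Pcp4, a calmodulin-binding peptide, fell from 6280 to 3262 copies and Mylk, the myosin light chain kinase, from 9121 to 5256. Ppp3cb, a catalytic subunit of calcineurin, rose from 98 to 149.

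Of the 13 compared regulators of calcium transport and of calbindin genes, 2 were called higher and 4 lower, with a median of -0.17. Over all compared genes, 15.2% were called higher and 14.7% lower. Sgk1, a kinase that acts on epithelial ion channels, fell from 1198 to 187 copies, 6.25-fold (5.36 to 7.34). Pth1r, the receptor of parathyroid hormone, fell from 725 to 335. The steroid receptor genes Pgr, from 687 to 1251 copies, and Esr1, from 165 to 262, rose 1.87-fold (1.70 to 2.05) and 1.63-fold (1.33 to 1.99).

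Markers of the cell types of the uterus moved with the library too. The counts of markers called, here and below, stand beside 15.2% of all compared genes called higher and 14.7% lower. Every epithelial, stromal and smooth muscle marker in the table had copies in both libraries. Of 17 compared epithelial markers, 8 were called higher and 2 lower, and the sum of the 19 in the table was 1770 TPM in Dox+ and 2490 in Dox−. The defining epithelial markers Cdh1, with 703 and 909 copies, and Epcam, with 467 and 821, had more copies in Dox−. Cdh1 was not called. The 2 called lower were Cldn3, from 1482 to 494 copies, and Cldn4, from 149 to 65. Of the 17 compared, 13 had a log2 ratio above 0 and 4 had one below 0. None of the 19 was at 0. The part of the epithelium in the values of Calb1 and Trpv6 was not tested. Foxa2, which defines uterine glands, had 35 and 34 copies, and the 7 gland markers summed to 125 and 102 TPM, with 1 of 4 compared called higher and 2 lower, and 1 was at 0 in Dox−.

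Smooth muscle markers went the same way as Slc8a1. All 14 had a log2 ratio below 0, 6 were called lower, the median was -0.54 and the sum was 10900 TPM in Dox+ and 7710 in Dox−. Myh11, the smooth muscle myosin, had 4609 and 3169 copies, a log2 ratio of -0.51. Pcp4 is in this list and in that of calmodulin targets. The part of smooth muscle in the values of Slc8a1 and of the calmodulin targets was not tested. Stromal markers summed to 2710 and 2000 TPM with 4 of 11 called lower and 1 higher, endothelial markers to 300 and 199 TPM with 4 of 5 called lower, and leukocyte markers to 513 and 747 TPM with 2 of 7 called higher.

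Mesothelial and neuronal markers, the cells in which Calb2 is best known, were low. The 8 mesothelial markers in the table summed to 89.0 TPM in Dox+ and 36.3 in Dox−, and Msln, which defines mesothelium, had 66 and 18 copies. Of these 8 markers only Wt1 was compared, and it was called lower. Wt1 had 325 and 157 copies, the most of the 8, and so weighs heavily in both sums. Whether the Wt1 copies came from mesothelium was not tested, so its call and these sums need not describe mesothelium. In Dox− 1 marker was at 0. Neuronal and neuroendocrine markers summed to 29.6 and 20.9 TPM over 11 genes, none with 200 combined copies, and 4 of them were at 0 in Dox− and 1 in Dox+. Snap25 had no row.

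**Figure D4:**
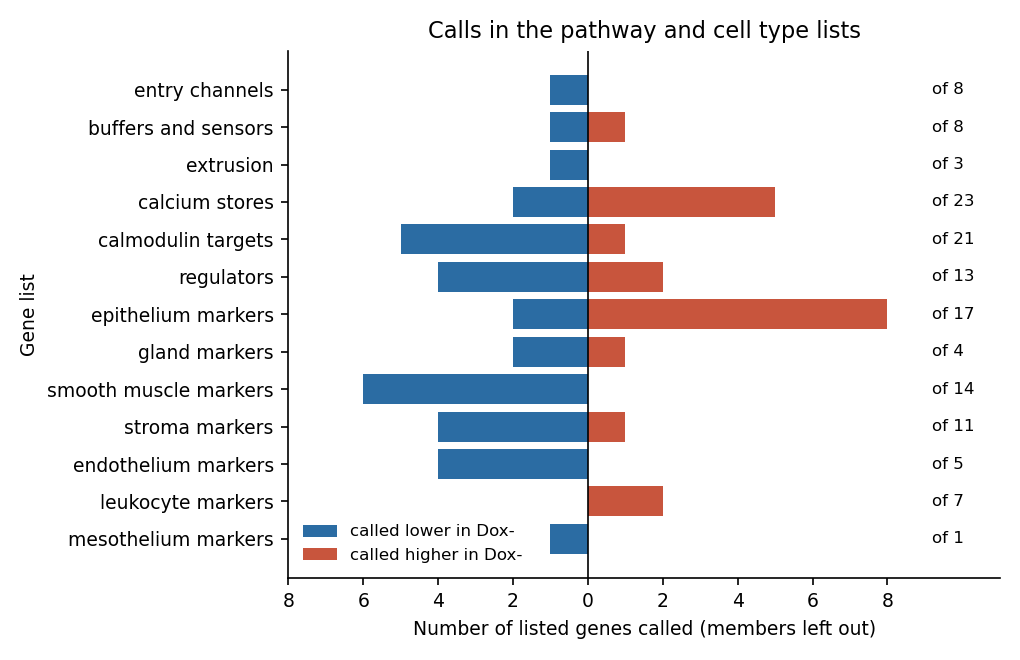
Number of genes called lower (blue, left) and higher (red, right) in Dox− in the pathway lists and the cell type marker lists, members left out. The number at the right is that of the genes with at least 200 combined copies, and the neuronal list had none. Epithelial markers show 8 called higher of 17, and smooth muscle markers 6 called lower of 14.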

How the data were processed

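The deposited counts are the copy numbers of clean tags that the authors assigned to each gene, without normalization. They had removed adaptor-only, low quality and single-copy tags and matched the rest to mouse reference transcripts of mm9, counting unambiguous tags only. The deposited TPM values are the copies per 1000000 clean tags, with 0.01 at no copy and no length correction. CASAVA is named in the submitters' processing notes. The aligner and the restriction enzyme are not given in the sources used here. The labels mention fragmented mRNA while the methods describe tags. The recovered library sizes equal the clean tag totals of the paper, so TPM without division is the study's own measure. Columns with the authors' own ratios and P-values were not used.

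Library sizes were recovered from the TPM values as the only whole numbers for which copies and TPM match to the printed decimals. The test was that of Audic and Claverie, two-sided, with Benjamini-Hochberg FDR over all 14678 genes. It was tried on simulated libraries with counting error only, so variation between pools was not covered. Intervals are exact (Clopper-Pearson for ratios, Poisson for levels) at 95% and cover counting error only, and a count of 0 is given the limit of 3 copies. Fold changes carry no pseudocount, and none was taken with 3 or fewer copies in both libraries. The genes, lists and tests were chosen with earlier results of these data known. The text names all members and up to 2 called genes per direction of each pathway list. It names the 3 genes nearest to each calbindin with 200 combined copies, and defining markers. Wt1, Cldn3, Cldn4 and Vegfa are named as well. Positions and transcript lengths are from GENCODE on NCBIM37. Alternatives were other scalings, filters, fold thresholds and tests. Python 3.11.15, numpy 2.4.6, scipy 1.17.1, pandas 2.3.3, matplotlib 3.10.9, R 4.3.3 and edgeR 4.0.16 were used. A gene related to the members is not reported here.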

Additional observations from a re-analysis of the deposited data

How the results depend on the processing

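The log2 ratios of all 6 members with a ratio kept their direction and stayed within their 95% intervals under TMM scaling, median-ratio scaling, the summed copies as library size and a pseudocount of 1. Calb1 was called lower under 12 of 13 alternatives and Slc8a1 under 10. Trpv6 was called higher in 2 of them, with a minimum of 100 combined copies and with no minimum, so that 1 member was then called higher, since its 107 copies pass these filters. At 2-fold, 1 member was called lower, and with the negative binomial exact test of edgeR 1 was at an assumed coefficient of variation of 0.2 and 0 at 0.4. Over all genes, no minimum gave 2044 higher and 2077 lower, 2-fold gave 302 and 368, a coefficient of variation of 0.2 gave 147 and 174, and 0.4 gave 16 and 17. No paired analysis was possible because each condition has 1 library. For the same reason no replicate could be left out. Depth limits Calb2, Trpv6 in Dox+ and Atp2b4.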
